A study of Rattus norvegicus with 12 samples.

Results

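Diacylglycerol kinases were examined in the CA1 field of the rat hippocampus, with transcript levels read on 12 Affymetrix RAE230A arrays. The family was listed by 5 gene symbols, Dgkz, Dgka, Dgkb, Dgkg and Dgki, and a probe set (a group of short probes against a transcript) counted as a member when the array's annotation gave it that symbol alone. This found 5 probe sets for 4 of the 5 genes, out of 12783 probe sets and 10411 genes with a single symbol. Dgki had none and is not analysed here. The list was drawn up because Dgkz ranked first by p-value among the transcripts that were higher after spatial learning, so the Dgkz difference below is a description and carries no test. Young male Long-Evans rats, 3 to 4 months old, had all learned a standard water maze 2 to 3 weeks before a single session of 8 trials in a different maze. In the spatial learning group (6 arrays) the visible platform kept its place and orienting cues were present. In the control task group (6 arrays) the visible platform changed place between trials and informative cues were lacking. Every rat swam a probe trial of 90 seconds 1 hour after the last trial and was killed immediately afterwards, so swimming and handling were shared by both groups. No untrained or home cage group is analysed here.

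Diacylglycerol is released in the membrane when receptors coupled to Gq activate phospholipase C, and it recruits protein kinase C, RasGRP exchange factors and Munc13 proteins. Diacylglycerol kinases phosphorylate it to phosphatidic acid, which ends that signal, starts signalling by phosphatidic acid and feeds the resynthesis of phosphoinositides. The mammalian isoforms are grouped by domains: the type I enzymes alpha, beta and gamma carry calcium-binding EF hands, and the type IV enzymes zeta and iota carry ankyrin repeats and a PDZ-binding tail. In mouse hippocampus the zeta isoform binds the postsynaptic scaffold PSD-95 and helps to keep dendritic spines in place, and mice without the beta isoform have fewer spines.

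Dgkz, which encodes the zeta isoform, was higher in every spatial learning array than in any control task array. The same held for 0.364% of the 9610 probe sets tested across the array, and Dgkz was chosen by this contrast. All values are log2 probe set values, where a step of 1 is a doubling. Dgkz ran from 12.03 through a median of 12.17 to 12.33 in the spatial learning group, against 11.70, 11.78 and 11.98 in the control task group. The groups did not overlap, but they came close, with a gap of 0.048 between spatial learning replicate 6, the lowest of its group, and control task replicate 6, the highest of its own. The means were 12.18 ± 0.12 in the spatial learning group and 11.80 ± 0.10 in the control task group (SD, n = 6 each). The difference was 0.38 (SE 0.059), a ratio of 1.30. The next gene in that ranking by p-value, Adprs, differed by 0.28, which is not the second largest difference (Synj2, for example, differed by 0.35). Dgkz had 1 probe set on the array, so no second reading of the transcript is given.

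**Figure D1:**
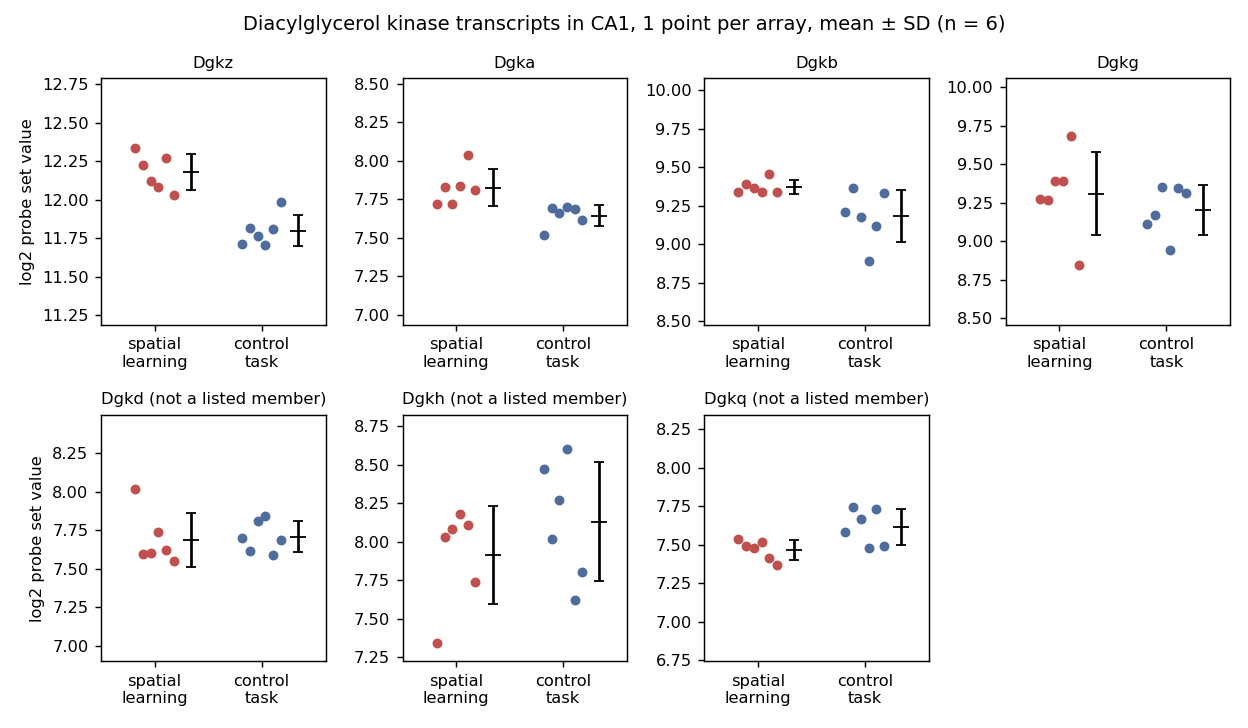
Log2 probe set values of the 4 listed kinases that were tested (upper row) and of 3 further kinases on the array (lower row), 1 point per array, spatial learning left of control task, with mean ± SD (n = 6) in black; each panel spans the same 1.6 log2 units. The Dgkz and Dgka points of the groups do not overlap, with gaps of 0.048 and 0.020, whereas those of the other 5 kinases do. Of all tested probe sets, 0.364% are separated in this direction.

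RefSeq lists 2 start sites for rat Dgkz and the probe set was not assigned to either, so the windows around both are shown with that of Dgka, the other kinase whose groups did not overlap. Each window covers 250 bases before and 50 after a start in build GRCr8. Capitals mark 2 motifs searched on both strands: the GC box GGGCGG and TGACG, the core letters of the cAMP response element.
Dgkz window 1, chr3:98391761-98392060, minus strand: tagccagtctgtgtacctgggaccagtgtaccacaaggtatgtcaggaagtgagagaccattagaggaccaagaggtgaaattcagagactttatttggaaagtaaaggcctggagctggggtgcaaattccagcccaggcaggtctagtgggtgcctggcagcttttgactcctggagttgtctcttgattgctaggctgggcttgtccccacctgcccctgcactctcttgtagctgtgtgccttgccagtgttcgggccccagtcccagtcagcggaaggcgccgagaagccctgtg
Dgkz window 2, chr3:98389653-98389952, minus strand: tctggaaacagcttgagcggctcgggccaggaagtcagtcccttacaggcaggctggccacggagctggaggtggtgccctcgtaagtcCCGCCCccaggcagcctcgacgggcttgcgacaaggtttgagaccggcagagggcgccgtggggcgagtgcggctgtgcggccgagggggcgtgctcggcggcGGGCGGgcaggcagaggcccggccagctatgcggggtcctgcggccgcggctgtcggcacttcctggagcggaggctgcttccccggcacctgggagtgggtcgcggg
Dgka, chr7:1759520-1759819, minus strand: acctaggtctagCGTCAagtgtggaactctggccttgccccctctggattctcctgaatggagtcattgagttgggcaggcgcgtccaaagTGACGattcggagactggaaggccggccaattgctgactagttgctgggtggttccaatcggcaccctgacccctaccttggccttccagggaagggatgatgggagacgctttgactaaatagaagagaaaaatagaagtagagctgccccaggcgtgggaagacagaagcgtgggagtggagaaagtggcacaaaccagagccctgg
The Dgkz windows differ in base composition, at 55.7% G and C in window 1 and 72.7% in window 2, and the Dgka window has 55.3%. Window 2 of Dgkz holds 2 GC boxes and window 1 none, while 33.1% of all 33469 rat windows of that length hold at least 1. TGACG occurs 2 times in the Dgka window and in neither Dgkz window, and 21.2% of all windows hold it. The letters TGACGTCA, TGANTCA and GCGNGGGCG, the cAMP response element, AP-1 and EGR motifs, occur in none of these 3 windows, and 1.83%, 7.33% and 4.98% of all windows hold them.

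The type I kinases were also higher on average, and none of the 3 passed the test. Of 9610 probe sets tested across the array, 0 passed (0% higher and 0% lower) with limma at an adjusted p of 0.05. Without adjustment 6.36% of all probe sets were higher and 4.55% lower at a p of 0.05. Dgka encodes the alpha isoform. It ran from 7.72 through a median of 7.82 to 8.04 in the spatial learning group, against 7.51, 7.67 and 7.70 in the control task group. The groups of Dgka did not overlap, by a margin of 0.020, and 0.364% of all tested probe sets were separated in this direction. Its difference was 0.18 (SE 0.059), with a limma adjusted p of 0.400.

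Dgkb encodes the beta isoform, a calcium-binding enzyme of neurons. Its values were 9.34, 9.35 and 9.46 (lowest, median, highest) in the spatial learning group, against 8.89, 9.19 and 9.36 in the control task group. The spatial learning arrays lay close together, with an SD of 0.047 against 0.17 in the control task group, and 5 of the 6 control arrays were below all of them. The difference was 0.19 (SE 0.069), with a limma adjusted p of 0.425. Control task replicate 4, at 8.89, was the lowest array, and without it the difference was 0.13.

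Dgkg encodes the gamma isoform and has 2 probe sets. On the brighter it ran from 8.85 through 9.33 to 9.68 in the spatial learning group, against 8.94, 9.24 and 9.35 in the control task group. The groups overlapped widely, and spatial learning held both the lowest and the highest array (replicates 6 and 5). The difference was 0.10 (SE 0.12), with a limma adjusted p of 0.780. It was 0.029 without spatial learning replicate 5, 0.20 without replicate 6 and 0.051 without control task replicate 4. This was the most variable of the listed kinases, with a within-group SD above that of 87.8% of all tested probe sets, against 42.4% for Dgkz, 32.2% for Dgka and 52.5% for Dgkb. The second Dgkg probe set stayed between 2.52 and 2.59 in the spatial learning group and between 2.55 and 2.59 in the control task group. It lay below the mean of 4 that a probe set needed to be tested, and its difference was -0.0038.

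Of the 4 listed kinases that were tested, Dgkz was higher by the rule that chose the family. Dgka, Dgkb and Dgkg also had a positive difference, as did 53.7% of all probe sets. The remaining kinases on the array did not share this sign. Dgkd, Dgkh and Dgkq, for the delta, eta and theta isoforms, each had 1 probe set and a negative difference, and 0 of the 3 passed the test. Dgkq ran from 7.37 through 7.49 to 7.54 in the spatial learning group, against 7.48, 7.63 and 7.75 in the control task group. Its difference was -0.15 (SE 0.059), with a limma adjusted p of 0.429. The groups overlapped, with 2 spatial learning arrays below all controls. Dgkh had means of 7.91 ± 0.32 in the spatial learning group and 8.13 ± 0.385 in the control task group (SD, n = 6 each), a difference of -0.22 (SE 0.18, limma adjusted p = 0.692). It was -0.10 without spatial learning replicate 1 and -0.12 without control task replicate 4. Dgkd differed by -0.020 (SE 0.079, limma adjusted p = 0.948). Its sign turned in 5 of 25 other settings, some of which cannot move a difference of means. Over the 7 kinases tested, 4 were therefore higher, Dgkz among them by the rule, and 3 lower. Levels of different kinases cannot be ranked, since each probe set has its own response.

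From array to array within a group, no pair of the listed kinases passed a test of correlation. Deviations from the group means were correlated for the 6 pairs of the 4 genes, over 12 arrays, with 100000 permutations within groups. Dgkz went with Dgkg at r = 0.53 (rho = 0.50, permutation p = 0.101 and 0.117) and with Dgkb at r = 0.50 (rho = 0.52, permutation p = 0.100 and 0.0664). Without the 2 arrays farthest from the Dgkz median these were 0.58 and 0.64. Dgkz with Dgkg was 0.33 without spatial learning replicate 6, and Dgkz with Dgkb was 0.35 without control task replicate 6. Dgkb and Dgkg gave r = 0.43 (rho = 0.28, permutation p = 0.0669 and 0.396), 0.34 without the 2 arrays farthest from the Dgkb median and 0.19 without control task replicate 4. The 3 pairs with Dgka gave r between 0.048 and 0.38. Over the 6 pairs the smallest adjusted permutation p was 0.201 for r and 0.352 for rho.

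Dgkz followed the markers of CA1 pyramidal cells closely inside each group. These 7 markers, which were above the level of 4 on average, were Wfs1, Fibcd1, Itpka, Pou3f1, Man1a1, Mpped1 and Gpr161. Their mean per array ran from 10.44 to 10.80 in the spatial learning group and from 10.38 to 10.70 in the control task group. Spatial learning replicate 6, the lowest of its group in Dgkz, was also its lowest in the CA1 markers, and control task replicate 6 was the highest of its group in both. The deviations from the group means correlated at r = 0.895 (rho = 0.79, n = 12, permutation p = 0.00053 and 0.00223). Adjusted over the 44 pairs of 4 kinases with 10 marker lists and a measure of RNA integrity, a family of pairs chosen after the data were seen, these p were 0.0233 and 0.0491. The r was 0.91 among the 6 spatial learning arrays and 0.87 among the 6 control task arrays, and 0.86 without the 2 arrays farthest from the median of the markers. Each of the 7 markers had a positive r with Dgkz, from 0.52 for Gpr161 to 0.82 for Fibcd1. Of the 9603 tested probe sets outside the marker list, 11 (0.115%), Dgkz included, had an r with the CA1 mean at least as high.

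**Figure D2:**
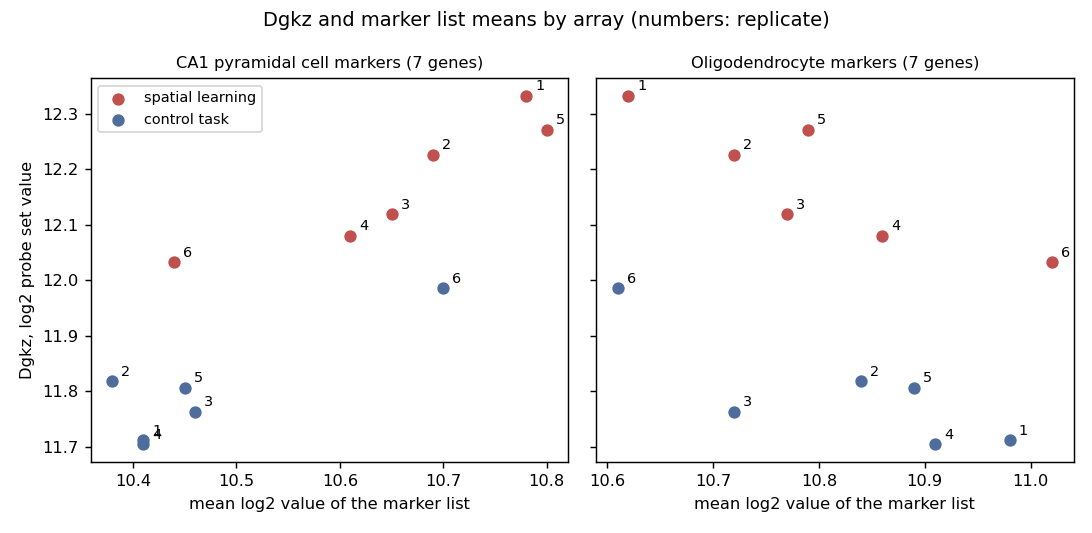
Dgkz (vertical axis, log2 value) against the per-array mean of 7 CA1 pyramidal cell markers (left) and of 7 oligodendrocyte markers (right), both log2, 1 point per array with its replicate number. In both groups Dgkz is higher where the CA1 markers are higher (r = 0.895 within groups) and where the oligodendrocyte markers are lower (r = -0.831). All spatial learning points lie above all control task points in Dgkz, the gene that this contrast chose.

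The oligodendrocyte markers ran the other way. Their mean lay between 10.62 and 11.02 in the spatial learning group and between 10.61 and 10.98 in the control task group, with 2 of 7 markers higher and 5 lower (exact permutation p = 0.708 for the mean). Its deviations correlated with those of Dgkz at r = -0.831 (rho = -0.79, permutation p = 0.00119 and 0.00210, adjusted 0.0262 and 0.0491), and at -0.61 without the 2 farthest arrays. All 7 markers, Mbp and Mobp among them, had a negative r with Dgkz, from -0.87 for Ugt8 to -0.37 for Cnp. These 2 were the only pairs of the 44 that passed. Dgkz with the dentate granule cell markers gave r = -0.63 (rho = -0.66, permutation p = 0.0231 and 0.0105, adjusted 0.315 and 0.154), and -0.50 without the 2 farthest arrays. With the interneuron markers Dgkz gave r = -0.57 (rho = -0.57, permutation p = 0.0653 and 0.0528, adjusted 0.469 and 0.465), and 0.031 without the 2 farthest arrays. Dgkg came next among the other kinases, at r = 0.68 with the CA1 markers (rho = 0.65, permutation p = 0.0287 and 0.0256, adjusted 0.315 and 0.281), and 0.64 without the 2 farthest arrays.

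The CA1 markers also went with the groups, without passing after adjustment. All 7 were higher on average after spatial learning, with a median of 0.15, and the list mean differed by 0.19 (exact permutation p = 0.0390, adjusted over the 10 marker lists 0.119). With the CA1 mean as a covariate, chosen after the data were seen, the Dgkz difference was 0.23 (SE 0.043) in place of 0.38, and that of Dgkg was -0.13 (SE 0.12). Dgka then differed by 0.16 (SE 0.080) and Dgkb by 0.12 (SE 0.088), and with the oligodendrocyte mean as a covariate Dgkz differed by 0.36 (SE 0.039). More CA1 pyramidal cell RNA in the dissected piece and more transcript per cell cannot be told apart in bulk tissue, for Dgkz or for the markers.

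Of the other tissues the piece could hold, no list passed after adjustment. Dentate granule cell markers were lower in 4 of 4, with means from 6.35 to 6.72 in the spatial learning group and from 6.43 to 7.06 in the control task group. The exact permutation p for the mean was 0.0974, adjusted 0.195, and Trpc6, at 4.34 and 4.53, lay near the level of 4. CA3 pyramidal cell markers were higher in 2 and lower in 2 of 4, with Bok at 0.37 and Nnat at -0.34 (exact permutation p = 0.963 for the mean). Astrocyte markers were lower in 9 of 10 and microglia markers in 7 of 7 (exact permutation p = 0.0476 and 0.184 for the means, adjusted 0.119 and 0.307). Markers of neighbouring brain regions were lower in 4 of 5 (exact permutation p = 0.0260, adjusted 0.119). Choroid plexus markers, 3 of 8 tested, ran from 5.70 to 6.05 in the spatial learning group and from 5.94 to 9.49 in the control task group. Their mean had the smallest p of the 10 lists (exact permutation p = 0.013, adjusted 0.119). That mean rested mostly on Ttr, which differed by -3.33, while Enpp2 differed by -0.41 and Kcne2 by 0.18. Meningeal markers, 6 of 10 tested, ran from 6.29 to 7.70 and were highest in replicate 6 in the spatial learning group, against 6.35 to 7.95 with replicate 6 again highest in the control task group. The part of these tissues in the kinase differences was not tested beyond the values that follow. Without those arrays and control task replicate 3, the highest in choroid plexus markers, Dgkz differed by 0.45 and Dgkg by 0.26. RNA integrity was read from hexokinase control probe sets as 3' minus 5' signal, where a larger gap is read as lower integrity. The gap was 1.65 ± 0.11 in the spatial learning group and 1.48 ± 0.08 in the control task group (SD, n = 6 each, exact permutation p = 0.00433). It ran from 1.55 to 1.82 and from 1.35 to 1.55, so it went with the groups. With this gap as a covariate Dgkz differed by 0.41 (SE 0.086) and Dgka by 0.21 (SE 0.086, limma adjusted p = 0.774). Dgkb then differed by 0.11 (SE 0.095) and Dgkg by 0.29 (SE 0.15, limma adjusted p = 0.838 and 0.782).

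Among the brightest probe sets of 6866 other genes, those with a pattern over the 12 arrays most like that of Dgkz were Susd6, Vxn, Ralgapb, Cinp and Fndc5. Their r with Dgkz ran from 0.907 for Fndc5 to 0.940 for Susd6 over the 12 arrays, and from 0.53 to 0.85 on deviations from the group means. An r over the 12 arrays takes in the group difference that chose Dgkz, so a positive difference was favoured in advance. It was positive in all 5, from 0.17 for Fndc5, the precursor of irisin, to 0.33 for Susd6. On the deviations alone, the 5 genes nearest to Dgkz were Sugp1, a splicing factor, at 0.858, Cinp at 0.853, Cck at 0.848, Hebp1 at 0.847 and Plk2 at 0.842. Cck encodes the neuropeptide cholecystokinin and was also on the interneuron list, and Plk2 encodes an activity-regulated kinase of spines. The interneuron list mean did not share the sign of Cck, at r = -0.57 with Dgkz on the deviations. The genes named as nearest to Dgkz were picked for their likeness, so no p is attached. The remaining listed kinases stood further off over the 12 arrays, at r = 0.745 for Dgkb, 0.671 for Dgka and 0.46 for Dgkg. On deviations from the group means their r was 0.50 for Dgkb, 0.11 for Dgka and 0.53 for Dgkg.

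The genes around diacylglycerol were split evenly between the directions. Of 105 listed genes 84 had a probe set and 62 were tested, of which 31 were higher and 31 lower. Their median was -0.0020, against 0.0079 over all tested probe sets. None passed the limma test in either direction. Without adjustment 8 of the 62 had a p under 0.05, near the 6.36% higher and 4.55% lower over all tested probe sets. These lists were chosen with earlier results of these data known.

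**Figure D3:**
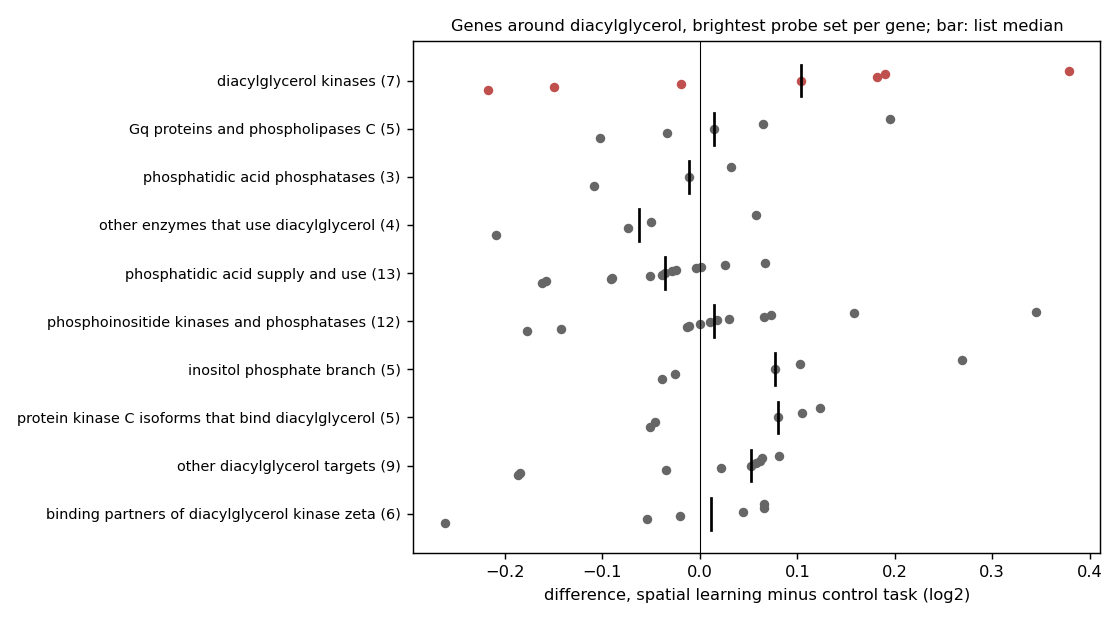
Differences, spatial learning minus control task (log2), of the 7 diacylglycerol kinases tested (top row, 4 listed and 3 further) and of 62 genes of 9 surrounding lists, on the brightest probe set of each gene, with list medians as bars and the number of genes in brackets. Dgkz, the gene that this contrast chose, lies farthest to the right at 0.38, ahead of Synj2 at 0.35. Outside the kinases the list medians lie between -0.062 and 0.0805.

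On the supply side, 5 genes of Gq and phospholipase C were tested, 3 higher and 2 lower. Plcg1, the phospholipase C activated by receptor tyrosine kinases, ran from 8.15 through 8.35 to 8.50 in the spatial learning group, against 8.05, 8.16 and 8.24 in the control task group. Its difference was 0.20 (SE 0.060, limma adjusted p = 0.388) with overlapping groups. Plcb1, the main Gq effector of hippocampal pyramidal cells, differed by 0.065 (SE 0.042, limma adjusted p = 0.605). Phosphatidic acid phosphatases, which turn the kinases' product back into diacylglycerol, gave 1 higher and 2 lower of 3, with Plpp3 at -0.11 and Plpp1 at -0.011 (limma adjusted p = 0.562 and 0.950). Plpp3 differed by -0.049 without control task replicate 5, and its further probe sets gave -0.16 and -0.11 over all arrays.

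Among enzymes that compete with the kinases for diacylglycerol 1 was higher and 3 lower of 4, with Chpt1, a cholinephosphotransferase, at -0.21 and Dgat1, which makes triglyceride, at -0.074 (limma adjusted p = 0.517 and 0.734). Chpt1 differed by -0.11 without control task replicate 6, and Dgat1 by -0.029 without control task replicate 4. Genes of phosphatidic acid supply and use were lower in 10 of 13. Agpat4 and Agpat5, which make phosphatidic acid from lysophosphatidic acid, differed by -0.16 each (SE 0.065 and 0.070, limma adjusted p = 0.434 and 0.437). The list median was -0.036.

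Phosphoinositide kinases and phosphatases were higher in 8 of 12. Synj2, a phosphoinositide phosphatase, ran from 8.20 through 8.52 to 8.80 in the spatial learning group, against 7.93, 8.20 and 8.42 in the control task group. The groups overlapped, and the difference was 0.35 (SE 0.10, limma adjusted p = 0.388). With the CA1 markers as a covariate it was 0.089. Its presynaptic relative Synj1 differed by -0.14 (limma adjusted p = 0.626). In the inositol phosphate branch 3 of 5 were higher. Itpka, a spine kinase that is itself on the CA1 marker list, differed by 0.27 (SE 0.075, limma adjusted p = 0.376), and Impa1, an inositol monophosphatase, by 0.077 (limma adjusted p = 0.596).

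Of the targets of diacylglycerol, 3 of 5 protein kinase C isoforms were higher. Prkcb, abundant in forebrain neurons, ran from 12.76 through 12.95 to 13.00 in the spatial learning group, against 12.73, 12.77 and 12.92 in the control task group. Its difference was 0.12 (SE 0.043, limma adjusted p = 0.423), and 0.023 with the CA1 markers as a covariate. Prkcd, which also marks thalamus, differed by 0.10 (limma adjusted p = 0.666). Of the other targets 6 of 9 were higher. Rasgrp1, a Ras exchange factor whose activation by diacylglycerol the zeta isoform limits, differed by -0.035 (limma adjusted p = 0.923). A second Rasgrp1 probe set gave 0.038. Unc13a, a Munc13 protein of vesicle priming, differed by -0.18, and Trpc6, a diacylglycerol-gated channel also on the dentate list, by -0.19 (limma adjusted p = 0.447 and 0.429).

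Known binding partners of the zeta isoform were higher in 3 of 6, with a median of 0.012. Dlg4, which encodes PSD-95, ran from 7.34 through 7.98 to 8.13 in the spatial learning group, against 7.55, 8.20 and 8.81 in the control task group. The difference was -0.26 (SE 0.19, limma adjusted p = 0.656), a second probe set gave -0.32, and with the CA1 markers as a covariate the first gave 0.034. The first gave -0.13 without control task replicate 2 and -0.15 without spatial learning replicate 1. Rb1, the retinoblastoma protein, differed by 0.066 (limma adjusted p = 0.670).

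**Figure D4:**
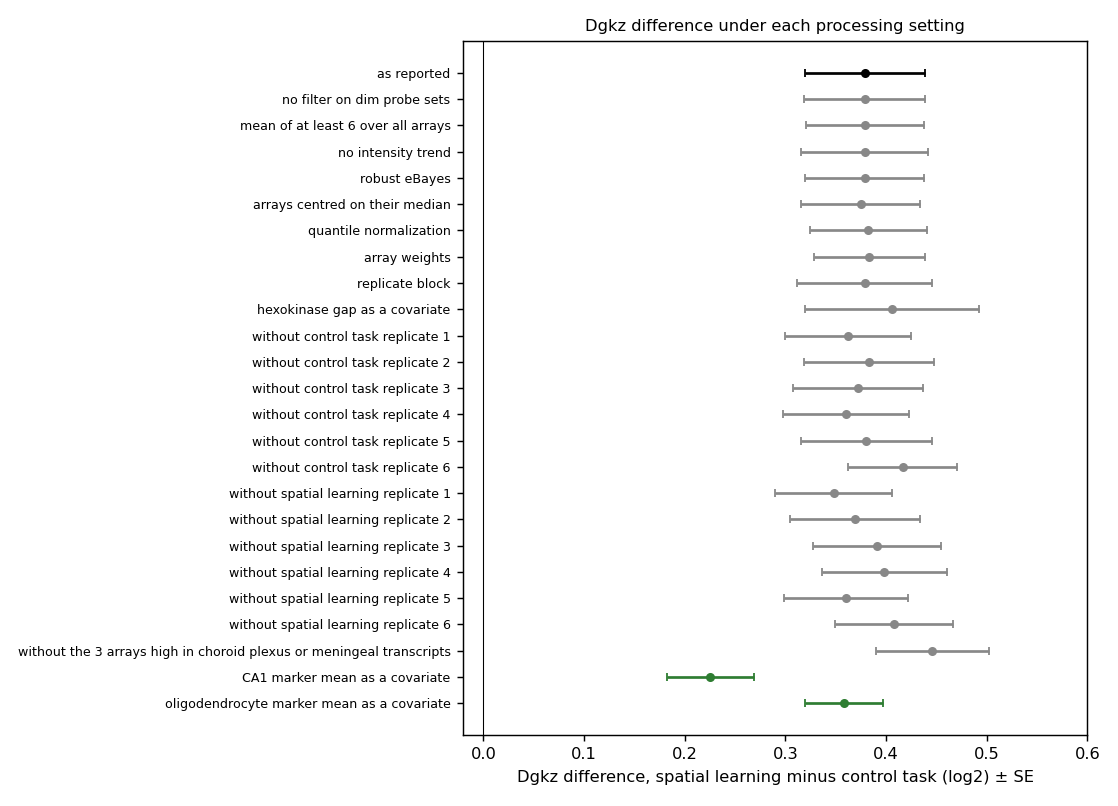
The Dgkz difference, spatial learning minus control task (log2) ± SE, as reported (black), under other processing or with arrays left out (grey) and with a marker mean as a covariate chosen after the data were seen (green). The value is 0.38 as reported and stays between 0.35 and 0.45 in the grey settings shown, and it is 0.23 with the CA1 marker mean.

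The plot of the Dgkz difference by setting summarises how far the single value depended on arrays and processing. Leaving out any 1 array kept it between 0.35 (without spatial learning replicate 1) and 0.42 (without control task replicate 6). Under the other normalizations it was 0.37 to 0.38, filters cannot move a difference of means, and the covariate for CA1 markers moved it most.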

How the data were processed

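Total RNA of microdissected CA1 was labelled and hybridised to 1 RAE230A array per sample, per the labels' protocols. The deposited values are log2 probe set summaries made by the authors with GCRMA, per the submitters' processing notes, which corrects background by probe sequence and equalises the arrays' distributions; its version is not given in the sources used here. The log base was read from the range, 0.134 to 14.8. GCRMA compresses dim probe sets and hides a change in total RNA. Groups and replicate numbers come from the sample titles. Any pair of arrays correlated at 0.996 to 0.998. The number of arrays limits the precision.

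After 57 controls were removed, 9610 of 15866 probe sets averaged 4 or more over the 12 arrays and entered the test. It was made in R 4.3.3 by limma 3.58.1 (lmFit, then eBayes with an intensity trend, 2-sided, Benjamini-Hochberg over all of them, threshold 0.05); SEs are limma's moderated ones. Marker list means used 2-sided exact permutation tests over the 924 divisions of 6 against 6, whose smallest p is 0.00216. Each gene entered a list by its brightest probe set. The code was tested on simulated data. The members and lists were chosen with earlier results of these data known, as were the tests and alternatives. The rule for named genes took every member, in each pathway list the 2 genes with the smallest p plus Dagla, Plcb1, Rasgrp1, Dlg4, Lpin1 and Cds2 where tested (a further gene of the rule is not reported here), and the 5 genes most like Dgkz by each of 2 correlations. No batch could be tested, since neither labels nor files name one.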

Additional observations from a re-analysis of the deposited data

Results flagged for a closer look

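The spread inside each group of 6 arrays was searched for an array whose gap to its nearest neighbour was too large a share of the group's range by Dixon's criterion. Over 38 measures in 76 groups, 9 arrays passed, where about 1 in 20 groups would by chance, and 0 of the 8 kinase probe sets were among them. Spatial learning replicate 6 stood apart in the means of the meningeal markers, at 7.698, and of the CA3 markers, at 9.45, and it was low in Prkcb, at 12.76. Control task replicate 6 stood apart in the means of the meningeal markers, at 7.952, and of the CA1 markers, at 10.7, and in Chpt1, at 6.512. Chpt1 was also high in spatial learning replicate 5, at 6.104. Plpp3 was high in control task replicate 5, at 11.63, and Dlg4 was low in spatial learning replicate 1, at 7.338.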

How the results depend on the processing

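Over 25 other settings the Dgkz difference kept its sign, between 0.23 (CA1 marker mean as a covariate) and 0.45 (without the 3 arrays high in choroid plexus or meningeal transcripts). Filters, eBayes options, the replicate block and the rank-sum test cannot move a difference of group means. Signs kept in those settings show nothing further, for Dgkz or for any other gene. Dgka, between 0.14 and 0.21, and Dgkb, between 0.11 and 0.23, kept their sign and never passed, with limma adjusted p from 0.313 to 0.774 and from 0.267 to 0.838. Dgkg never passed either, and turned to -0.13 with the CA1 mean as a covariate. The number of probe sets past the threshold was 3 with array weights, 5 without those 3 arrays and 1 with the oligodendrocyte mean as a covariate, each time with Dgkz among them, a description since this contrast chose it, and otherwise 0. Leaving out single arrays gave 0 to 3, and the 3, again with Dgkz, came without control task replicate 6. Unadjusted, 1048 probe sets had a p under 0.05 in the reported fit, and the exact rank-sum test called 0. Its smallest p for 6 against 6 arrays is 0.00216, which passes adjustment over 9610 probe sets only if many separate fully. Just 0.364% separated upward and 0.271% downward, so a count of 0 was all but fixed. The replicate block gave 0 probe sets and a Dgkz difference of 0.38, so it changed no call. Arrays of the same number correlated between -0.171 and 0.0821, 1 of 6 best with its own number. The values therefore show no pairing by number, but they cannot exclude that animals were matched in training or handling. The cause of these changes was not tested.

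No difference whose sign turned was past the threshold. Dgkd was 0.084 with the hexokinase gap, 0.029 without the 3 arrays and -0.086 to 0.0074 without single arrays. Rasgrp1 was 0.048 and 0.069 in the first 2 of these settings and -0.089 to 0.023 without single arrays. Impa1 was -0.0034 with the hexokinase gap. Plcb1 was -0.0017, Plpp1 0.024 and Dlg4 0.034 with the CA1 mean, and Plpp1 -0.037 to 0.011 without single arrays. Correlations that turned when single arrays were left out were Dgkz with Dgka (-0.183 to 0.378), Dgka with Dgkb (-0.215 to 0.352) and Dgka with Dgkg (-0.109 to 0.513). Dgkz with the CA1 mean stayed between 0.834 and 0.939 without single arrays (0.806 without the 3 arrays), and with the oligodendrocyte mean between -0.900 and -0.753. Dgkz with Dgkg was 0.245 without the 3 arrays. Single arrays also moved Synj1 to -0.090 (without spatial learning replicate 3), Unc13a to -0.12 and Prkcd to 0.064 (both without control task replicate 4), and Rb1 to 0.044 (without control task replicate 3). Another background correction was not run, since only corrected values were used. Probe sets near the level of 4 are compressed towards background.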
